A study of Mus musculus with 6 samples.

Results

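Isg15, Ifit1, Ifit3, Rtp4, Oasl2, Ifi27l2a, Bst2, Irf7 and Usp18 are 9 genes switched on by type I interferon, and they were followed here across the cells of mouse skin. They were taken as a named list, and all 9 have a column among the 16158 genes of each of the 6 deposited tables. The skin came from NINJA mice aged 6 to 12 weeks, a strain with an inducible neoantigen, and in all 3 groups the sampled area had been treated with 4-OH-Tam. The groups, of 2 mice each, were NO_AG (antigen off), AG (antigen on) and AG_CPI (antigen on with CPI, an abbreviation that the labels do not spell out). By the labels, the mice had been examined before sequencing for visible skin disease and for the presence and function in skin of P14 cells, CD8 T cells with a transgenic receptor. Each library is 1 mouse, numbered 1 and 2 within its group.

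Type I interferons bind a receptor present on nearly every cell, whose kinases activate transcription factors that bind, with Irf9, to interferon-stimulated response elements in promoters. Irf7 is a transcription factor of the loop that makes more interferon. Isg15 is a ubiquitin-like modifier that is attached to proteins, and Usp18 removes it and also damps signalling at the receptor. Ifit1, Ifit3 and Oasl2 belong to families that bind foreign RNA or act downstream of its sensing, Bst2 (tetherin) holds budding virus at the membrane, Rtp4 is a transport protein with antiviral activity, and Ifi27l2a is a small membrane protein of the Ifi27 family. Interferon-gamma, made by T cells, acts at gamma-activated sites, and its target genes overlap with these.

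The promoters of 4 genes are printed because they hold the letters of the interferon-stimulated response element. RefSeq promoters (GRCm38.p6, 250 bases before to 50 after the start, in the promoter table used here) were at hand for 6 of the 9 genes, namely Isg15, Ifit1, Ifit3, Bst2, Oasl2 and Irf7. The core of the interferon-stimulated response element (GAAA, any 2 bases, GAAA) was searched on both strands. It was found in 4 of these 6 and in 1131 of all 32851 promoters (3.44%). TTCNNNGAA, the core of the gamma-activated site, was found in 1 of the 6 (Bst2, where it overlaps the other element) and in 2726 of all promoters (8.30%). The windows below run from 200 to 41 bases before the start on the gene's own strand, with every match of the response element core in capitals. Overlapping matches give a longer run of capitals, and TTTC, any 2 bases, TTTC is the same element read on the opposite strand.
Isg15 (chr4:156200859-156201018, minus strand, 3 overlapping matches): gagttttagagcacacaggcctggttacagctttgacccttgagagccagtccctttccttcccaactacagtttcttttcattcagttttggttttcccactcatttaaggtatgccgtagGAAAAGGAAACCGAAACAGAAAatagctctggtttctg
Bst2 (chr8:71537513-71537672, minus strand, 2 overlapping matches): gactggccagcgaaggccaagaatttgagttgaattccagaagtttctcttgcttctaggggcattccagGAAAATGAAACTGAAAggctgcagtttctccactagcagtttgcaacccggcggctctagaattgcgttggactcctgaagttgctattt
Ifit3 (chr19:34583329-34583488, plus strand, 2 matches): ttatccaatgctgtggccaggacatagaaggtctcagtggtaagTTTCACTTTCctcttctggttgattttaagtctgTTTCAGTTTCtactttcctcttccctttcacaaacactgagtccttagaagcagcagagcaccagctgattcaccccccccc
Ifit1 (chr19:34640689-34640848, plus strand, 2 matches): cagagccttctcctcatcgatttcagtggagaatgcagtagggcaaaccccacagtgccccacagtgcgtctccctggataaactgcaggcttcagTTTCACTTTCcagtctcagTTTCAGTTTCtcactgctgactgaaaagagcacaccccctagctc

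In Isg15 the matches lie between 78 and 57 bases before the start, in Bst2 between 130 and 115, in Ifit3 at 156 to 147 and 122 to 113, and in Ifit1 at 104 to 95 and 85 to 76. A match is a string of letters and not a bound site. In GENCODE vM21 (GRCm38) all 9 genes are protein-coding: Isg15 lies at chr4:156199424-156200818, Oasl2 at chr5:114896936-114912234, Usp18 at chr6:121245906-121270917, Irf7 at chr7:141262706-141266481, Bst2 at chr8:71534255-71537456, Ifi27l2a at chr12:103442167-103443680, Rtp4 at chr16:23520291-23614222, Ifit3 at chr19:34583531-34588731 and Ifit1 at chr19:34640871-34650009. Ifit3 and Ifi27l2a have close copies beside them, Ifit3b at chr19:34607970-34613401 and Ifi27l2b at chr12:103450898-103457223, with columns of their own, and how reads shared between copies were assigned is not given in the sources used here, so the levels of Ifit3 and Ifi27l2a are uncertain to that extent.

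The 6 libraries held 1736 to 4972 cells and 5650384 to 23845530 UMIs (unique molecular identifiers, each a tagged RNA molecule), with the fewest of both in AG_CPI 1 and AG_CPI 2. Median UMIs per cell were lowest in AG_CPI 1 (2527), then AG 2 (2612.5) and AG_CPI 2 (2778.5). After cell filters, 1712 to 4764 cells per mouse were used. Pairs of libraries shared 5 to 35 cell barcodes, against 5.2 to 31.5 for random draws from the kit's barcode list. AG_CPI 1 stood apart from the others: outside T cells, 2.17% of its cells had an Xist UMI and 92 Ddx3y UMIs were counted, against 66.9% to 85.9% of cells and 0 Ddx3y UMIs in the other 5, while 53.9% of its CD8 T cells had an Xist UMI. The main results that rest on AG_CPI are given without this mouse too. The labels do not give a batch or date, and p-values over 2 mice a group measure the spread between these mice only. Beside the fits, an exact permutation test of 2 mice against 2 cannot go below p = 0.333.

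Among classes with at least 10 cells in both AG mice, the 9 genes were most abundant in macrophage-like cells. A level is the mean over the cells of a class in 1 mouse, in UMIs per 10000 UMIs of the cell. UMIs count molecules at the 5' end, so levels are not divided by gene length, and the levels of the 9 genes were added to give a summed level. In AG mice the summed level was 46.9 and 50.9 in monocyte/macrophage-like cells (led by Ms4a7, C1qb and Mmp12), 20.5 and 42.0 in Foxp3-positive CD4 T cells, 32.0 and 30.1 in keratinocyte-like cells, 22.9 and 26.9 in a myeloid cluster led by Retnla, Mgl2 and Mrc1, 14.2 and 28.8 in Foxp3-negative CD4 T cells, 12.1 and 23.1 in CD8 T cells, and 6.74 and 12.8 in a Langerhans cluster (Cd207, H2-M2). Macrophage-like cells stood above each of the 10 other classes measured in both AG mice, while the 18 plasmacytoid dendritic-like cells of AG 2, the one AG mouse with enough of them, were higher still at 58.9. Keratinocyte-like cells overlapped Foxp3-positive CD4 T cells and stood above the Mgl2 cluster, whereas from the Mgl2 cluster down to ILC2-like cells (6.59 and 8.54) each class overlapped the next in the order. The place of keratinocyte-like cells depended on Ifi27l2a: over the 8 other genes they were at 11.2 to 14.97 in AG mice, overlapping the Mgl2 cluster (12.1 to 15.2) and a lymphocyte cluster led by Trdv4 (13.6 to 16.5), with macrophage-like cells at 31.3 to 33.4. In NO_AG mice the order was another: keratinocyte-like cells, at 2.04 and 3.25, were eighth of the 11 classes measured in both mice and overlapped their neighbours, and the highest levels were those of the Mgl2 cluster (9.25 and 23.9) and endothelial-like cells (13.1 and 17.8), which overlapped. The 10 Foxp3-positive CD4 T cells of NO_AG 2, a class under 10 cells in NO_AG 1, were at 29.6. In AG_CPI mice, plasmacytoid dendritic-like cells led at 47.2 and 52.6, of which Bst2 alone made up 37.1 and 46.0.

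**Figure D1:**
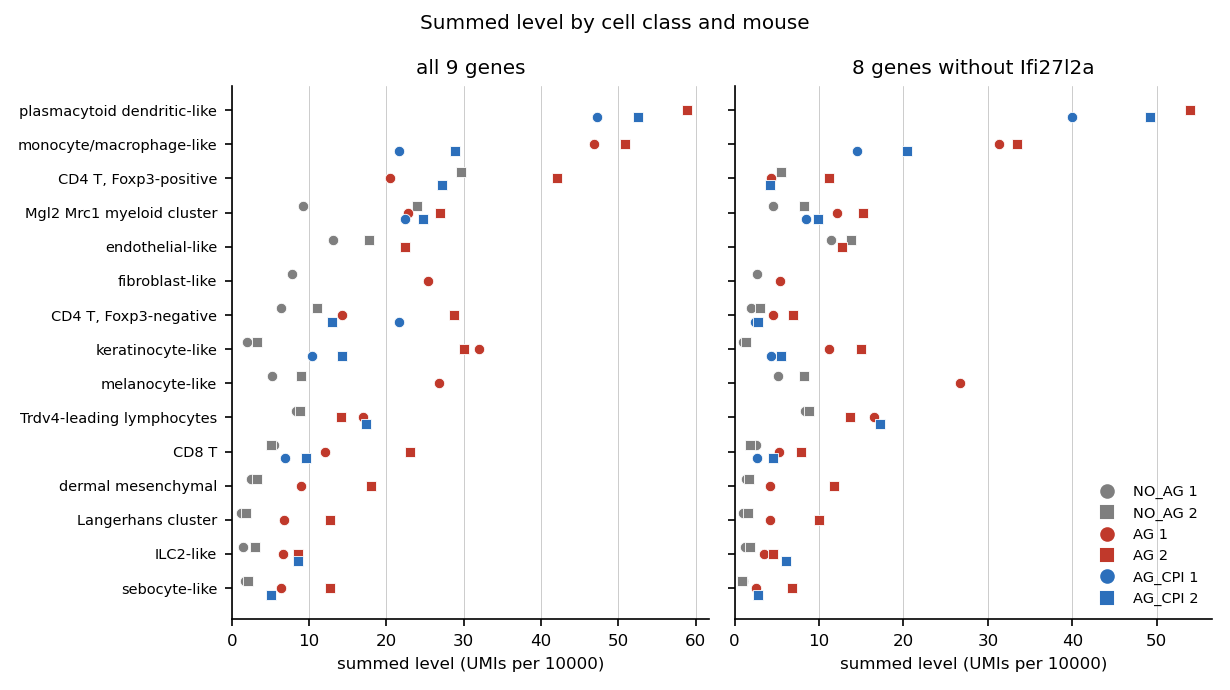
Summed level of the 9 genes (left) and of the 8 genes other than Ifi27l2a (right), in UMIs per 10000, by cell class; each point is 1 mouse with at least 10 cells of the class, coloured by group, circles for mouse 1 and squares for mouse 2. The AG points of keratinocyte-like cells (32.0 and 30.1) lie far to the right of the NO_AG points (2.04 and 3.25), with AG_CPI between them at 10.3 and 14.3.

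The genes did not share 1 pattern over cell types. Ifi27l2a, at 20.8 and 15.1, was the most abundant of the 9 in the keratinocyte-like cells of the AG mice, and it made up 69.6% and 72.5% in the Foxp3-negative CD4 T cells of the NO_AG mice. Its level was 16.2 and 30.8 in Foxp3-positive CD4 T cells of AG mice, yet in lymphocytes of a cluster led by Trdv4, a gamma-delta receptor segment of epidermal T cells, it stood at 0.498 and 0.543. Bst2 was high there: it was 11.3 and 9.83 in the Trdv4-leading lymphocytes of AG mice and 6.92 and 6.95 in those of NO_AG mice, against 0.237 and 0.332 in NO_AG keratinocyte-like cells. Oasl2 was 1.33 and 1.44 in AG keratinocyte-like cells and 1.59 and 1.70 in AG macrophage-like cells, but 0.0359 and 0.0770 in AG CD8 T cells, and it was at 0 in both AG mice in Foxp3-positive CD4 T cells. Irf7 was highest in AG macrophage-like cells, at 4.61 and 3.71, above the 10 other classes measured in both mice, with the Mgl2 cluster next at 0.976 and 1.36. Over 64 points of class and mouse, the correlation of a gene's log2 level with the mean of the other 8 (Pearson's r, given as a description, since points share libraries) was highest for Isg15 at 0.825 and Ifit1 at 0.748, and lowest for Ifi27l2a at 0.361 and Bst2 at 0.347.

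In keratinocyte-like cells (1084 and 1783 cells in AG, 2255 and 1734 in NO_AG), 6 of the 9 genes rose in AG against NO_AG (Isg15, Ifit1, Oasl2, Bst2, Rtp4 and Ifi27l2a), by 2.84 to 3.63 on the log2 scale. Of all 8255 genes tested in these cells, 0.497% were called higher and 0.0121% lower. Fold changes are on the scale of log2(level + 0.1), which understates them for low genes, and a call is an adjusted p under 0.05 in limma's moderated test, Benjamini-Hochberg adjusted over all genes tested in the class. Ifit3 was under the filter on low values, and Ifit1, 1 of the 8 tested, passed it without any NO_AG mouse, so its difference is partly set by the filter. Both AG mice lay above both NO_AG mice for all 8 genes tested, which was so for 22.4% of all genes. Without the filter, all 9 genes were higher, with a median log2 change of 2.92, against -0.0026 over all genes. The 6 calls all remained when any 1 of the 6 mice was left out, and 2 calls were made when the filter was dropped.

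Isg15, the modifier, was at 0.301 and 0.463 in NO_AG keratinocyte-like cells, 4.53 and 6.66 in AG and 1.52 and 2.10 in AG_CPI. The 3 groups did not overlap, with AG the highest; Isg15 rose by a log2 change of 3.63 in AG (SE 0.25, limma adjusted p = 0.00175). Its protease Usp18 was at 0.163 and 0.0984, 0.340 and 0.340, and 0.105 and 0.180 in the same order. The AG mice were alike and above the rest, and the log2 change of 0.99 (SE 0.22) had a limma adjusted p of 0.203. Irf7, the regulator, was at 0.0725 and 0.150 in NO_AG mice, 0.651 and 0.717 in AG mice and 0.152 and 0.365 in AG_CPI mice. Its log2 change of 1.97 in AG (SE 0.30) did not pass, with a limma adjusted p of 0.0520.

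Among the RNA-binding genes, Ifit1 was at 0.0334 and 0.0392 in NO_AG mice, 0.667 and 1.07 in AG mice and 0.282 and 0.354 in AG_CPI mice, a log2 change of 2.84 for AG against NO_AG (SE 0.22, limma adjusted p = 0.00223). Oasl2 was at 0.0647 and 0.111, 1.33 and 1.44, and 0.685 and 0.597, a log2 change of 3.05 (SE 0.17, limma adjusted p = 0.000653). Ifit3 was at 0.0109 and 0.00410, 0.0711 and 0.301, and 0 and 0.00830. It was not tested. For all 3, both AG mice were above the other 4, and for Ifit1 and Oasl2 both AG_CPI mice were above NO_AG.

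Bst2, which tethers virus, was at 0.237 and 0.332 in NO_AG mice, 2.27 and 3.09 in AG mice and 0.767 and 1.05 in AG_CPI mice, and rose by 2.92 in AG (log2, SE 0.22, limma adjusted p = 0.00216). Rtp4 was at 0.0878 and 0.109, 1.36 and 1.36, and 0.818 and 0.825, and rose by 2.93 (log2, SE 0.14, limma adjusted p = 0.000487). Ifi27l2a was at 1.07 and 1.95, 20.8 and 15.1, and 5.99 and 8.78, and rose by 3.61 (log2, SE 0.31, limma adjusted p = 0.00404). The groups did not overlap for any of these 3 genes, and the AG mice were nearly equal for Rtp4.

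**Figure D2:**
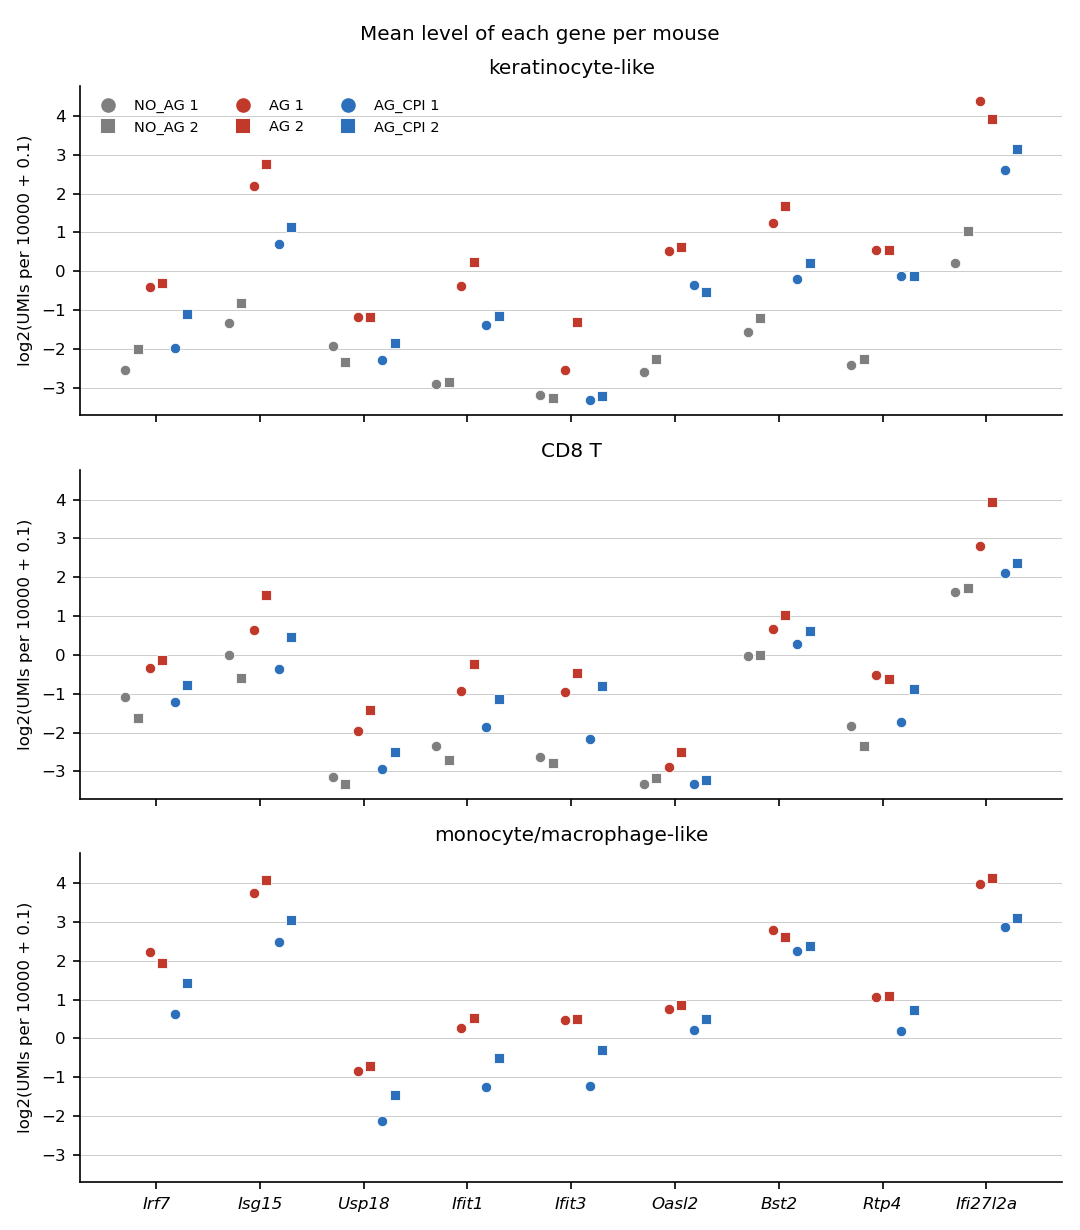
Level of each of the 9 genes per mouse, as log2 of UMIs per 10000 plus 0.1, in keratinocyte-like cells, CD8 T cells and monocyte/macrophage-like cells; each point is the mean over the cells of 1 mouse, and NO_AG is missing from the lowest panel because it had 7 and 3 such cells. In keratinocyte-like cells Isg15 goes from 0.301 and 0.463 UMIs per 10000 in NO_AG to 4.53 and 6.66 in AG, and AG_CPI lies between.

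Makeup and depth of the keratinocyte-like cells differed between mice. In AG 2, 559 of the 1783 cells lay in a cluster led by Ccl3, Slpi and Top2a, to which the other mice gave 4 to 16 cells each. Median UMIs per cell were 5344 and 6183 in NO_AG mice, 6830 and 2332 in AG mice, and 3629 and 3316 in AG_CPI mice. Keratinocyte markers summed to 425 to 598 UMIs per 10000 over the mice of the 3 groups (16 markers, all 16 detected in each mouse). Macrophage markers summed to 1.54 to 1.72 in NO_AG, 1.91 to 4.80 in AG and 3.25 to 4.55 in AG_CPI over 13 markers, of which 10 to 13 were detected, and alpha-beta T markers to 0.553 to 1.18, 1.38 to 5.31 and 2.23 to 5.92. The part of these other cells' RNA in the result was not tested. With each cell thinned to 1500 UMIs, 7 of the genes were called in AG against NO_AG, and likewise 7 with cells picked by a per-cell marker gate.

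Most keratinocyte-like cells of AG mice had UMIs of these genes. Of the keratinocyte-like cells thinned to 1500 UMIs, 80.9% and 73.3% had no UMI of any of the 9 genes in NO_AG mice, 10.5% and 4.99% in AG mice, and 34.0% and 20.9% in AG_CPI mice. Cells with UMIs of 3 or more of the genes were 0.931% and 1.38%, 29.8% and 44.1%, and 7.33% and 12.6% (unthinned 4.21% and 8.25%, 71.7% and 66.2%, and 28.3% and 36.5%). No cell class that should lack these genes was at hand to give the share that free RNA alone yields.

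**Figure D3:**
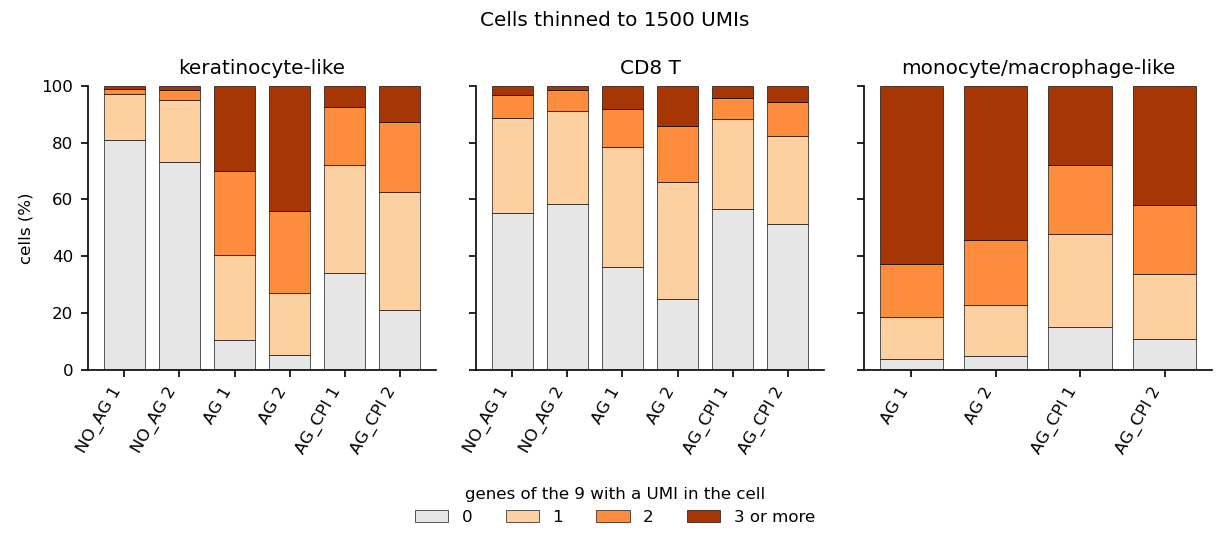
Share of cells (%) with UMIs of 0, 1, 2 or at least 3 of the 9 genes, after each cell was thinned to 1500 UMIs; 1 bar per mouse, in keratinocyte-like, CD8 T and monocyte/macrophage-like cells. Keratinocyte-like cells with none of the genes are 80.9% and 73.3% of cells in NO_AG mice and 10.5% and 4.99% in AG mice.

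The keratinocyte-like cells were clustered again, leaving the 9 genes and the listed interferon genes out of the clustering, into 26 clusters. In each of the 14 clusters with at least 10 cells from both groups, every AG mouse measured had a higher summed level than every NO_AG mouse measured. In those led by Krt71, by Pyy and by Il1r2, Igfbp3 and Atf3, NO_AG or AG or both had only 1 mouse. Over points of cluster and mouse, the level ran from 0.546 to 23.3 in NO_AG (31 points, median 2.31), from 12.4 to 50.1 in AG (31 points, median 30.3) and from 1.74 to 25.2 in AG_CPI (19 points, median 11.9). The highest NO_AG point, 23.3, came from 19 cells of NO_AG 1 in a cluster led by Pyy, Cxcl10 and Ubd, of which Cxcl10 and Ubd are themselves interferon-responsive, and the next was 8.85. In each of the 12 clusters with both AG and AG_CPI, every AG_CPI mouse measured was below every AG mouse measured. Both mice of both groups were measured only in the clusters led by Krt77 and Gm94, by Sprr4, by Fst and by Cenpf. The others had only 1 mouse in AG or AG_CPI or in both. Some of the clusters were led by genes of other cells, such as Lyz2, C1qc and C1qa, and they are shown with the rest.

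**Figure D4:**
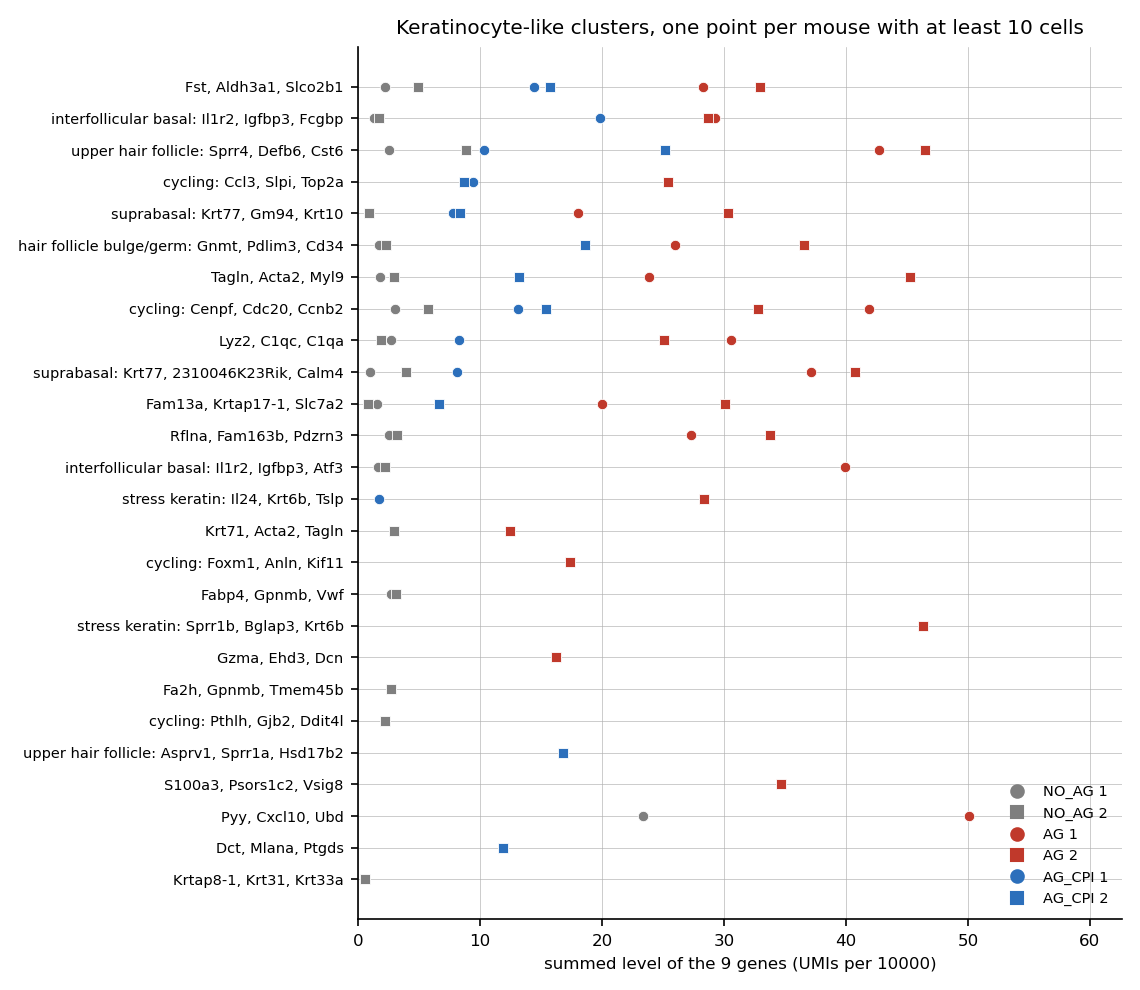
Summed level of the 9 genes in UMIs per 10000 for each cluster of keratinocyte-like cells, named by its state where markers gave one and by its leading genes; each point is 1 mouse with at least 10 cells of the cluster. In the 14 clusters with both groups, all AG points lie to the right of all NO_AG points.

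By state, calls in AG against NO_AG were made in each of the 6 states tested. Each state is 1 cluster, and other clusters given the same state name are left out. A left-out suprabasal cluster had summed levels of 1.00 and 3.94 in NO_AG and 37.2 and 40.7 in AG. The one used had 0.903 and 0.856 in NO_AG and 18.0 and 30.3 in AG. For cycling, the cluster used holds 62 cells of AG 2, and the left-out cluster led by Ccl3, Slpi and Top2a holds 559. In interfollicular basal-like cells 4 of the 9 genes rose (0.198% of all genes called higher), in suprabasal-like cells 2 (0.0607%), in cycling cells 6 (0.210%), in hair follicle bulge/germ-like cells 7 (0.448%), in upper hair follicle-like cells 6 (0.316%) and in a cluster led by Fst and Aldh3a1 6 (0.163%). Genes that passed the filter without any NO_AG mouse, and so had to be higher elsewhere, were 3 of the 7 tested in basal, 2 of 6 in suprabasal, 1 of 8 in cycling, 3 of 7 in bulge/germ, 2 of 8 in upper follicle and 1 of 8 in Fst cells, Ifit1 in each. Isg15 and Ifi27l2a, not among these, were called in all 6 states. In suprabasal-like cells, the differentiating layers, Ifi27l2a went from 0.146 and 0.223 to 12.1 and 14.9, a log2 change of 5.64, and in basal-like cells from 0.633 and 0.825 to 18.9 and 14.9, a log2 change of 4.38. The difference between these 2 changes, tested within mice, was -1.26 for basal minus suprabasal (SE 0.29, limma adjusted p = 0.798), and limma called 0 of 6 genes for this difference (0% of all genes; Ifi27l2a and Rtp4, 2 genes, had an unadjusted p under 0.05). In each of the 6 states the summed markers of another cell type were also higher in both AG mice than in both NO_AG mice: alpha-beta T markers in 5 states, all but suprabasal, and macrophage markers in 5, all but bulge/germ. In basal-like cells T markers summed to 0.0802 to 0.115 in NO_AG and 0.488 to 1.63 in AG, and macrophage markers to 0.946 to 1.33 and 1.78 to 3.45. In upper follicle-like cells T markers summed to 0.136 to 0.177 and 0.457 to 2.58. Their part in the result was not tested. In the clusters used, AG 2 gave 25 basal-like and 18 suprabasal-like cells, so its values there rest on few cells. Leaving out either AG mouse gave 0 calls in the suprabasal, cycling, upper follicle and Fst states and 3 and 4 in the basal and bulge/germ states. Leaving out NO_AG 1 gave 1 in the upper follicle and suprabasal states and 3 in the cycling and Fst states, and leaving out NO_AG 2, AG_CPI 1 or AG_CPI 2 gave 1 in the suprabasal state. With no filter on low values 0 were called in the basal, cycling, upper follicle and Fst states, and with thinned cells 0 in cycling, 1 in suprabasal, bulge/germ and upper follicle and 3 in Fst cells.

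In AG_CPI against AG keratinocyte-like cells, both AG_CPI mice were below both AG mice for all 8 genes tested (18.5% of all genes), with log2 changes from -1.56 (Isg15) to -0.66 (Rtp4). Limma called 0 of the 8 (adjusted p 0.371 to 0.477), while all 8 had an unadjusted p under 0.05. In that comparison limma called 0% of all 8255 genes lower. Bst2 had the lowest adjusted p, at a log2 change of -1.46 (95% interval -1.96 to -0.95). Without the filter all 9 were lower, with a median of -1.21 against -0.015 over all genes, and without AG_CPI 1 the 8 tested were lower as well, with 0 called. In the suprabasal, cycling, upper follicle and Fst states, the 4 with enough cells, limma called 0 of the 9 lower in AG_CPI against AG (0%, 0%, 0.0287% and 0% of all genes), with 5 at an unadjusted p under 0.05 in each. Calls made without AG_CPI 2 rest on AG_CPI 1 alone, the mouse that stood apart, with 11, 14, 37 and 35 cells in these states. AG_CPI held 191 and 277 keratinocyte-like cells.

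Against NO_AG, 6 of the 9 genes rose in AG_CPI keratinocyte-like cells (Isg15, Ifit1, Rtp4, Oasl2, Ifi27l2a and Bst2), by 1.46 to 2.33 on the log2 scale, where 0.363% of all genes were called higher. As above, Ifit1 was tested only through mice with antigen. Both AG_CPI mice were above both NO_AG mice for 7 of 8 (25.3% of all genes, with 29.1% below), the exception being Usp18 at a log2 change of 0.11 (SE 0.22). These calls depended on single mice and settings: 1 was made without AG_CPI 1, without AG_CPI 2 or without NO_AG 1, 3 without NO_AG 2, 2 with a pseudocount of 0.5 and 1 without the filter. By state, 1 gene rose in suprabasal-like cells (0.0455% of all genes), 2 in cycling (0.210%), 3 in upper follicle-like (0.718%) and 4 in Fst cells (0.408%), with the same limit on genes that passed the filter without NO_AG. Without AG_CPI 1 these were 7 in the upper follicle and Fst states, and without NO_AG 1, 0 in the cycling, upper follicle and Fst states. This comparison shares its NO_AG mice with that of AG, so the values are given side by side only.

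In CD8 T cells 8 of the 9 genes rose in AG against NO_AG, by 0.95 (Bst2) to 2.04 (Ifit3) on the log2 scale, where 1.45% of the 7236 genes tested were called higher and 0.415% lower. Oasl2 was under the filter. Of the 8, 4 (Ifit1, Ifit3, Rtp4 and Usp18) passed the filter without any NO_AG mouse, so they had to be higher elsewhere to be tested, and their calls are partly set by the filter. Both AG mice were above both NO_AG mice for all 8 (21.8% of all genes), and without the filter all 9 were higher, with a median of 1.57 against 0.020 over all genes. Without AG 2, 1 call was made, without either NO_AG mouse 3, without AG 1 7, without the filter 0 and with clustering at resolution 0.5 4. AG had 759 and 542 CD8 T cells, NO_AG 125 and 381, and AG_CPI 727 and 824.

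Isg15 in CD8 T cells was at 0.900 and 0.558 in NO_AG mice, 1.45 and 2.82 in AG mice and 0.680 and 1.27 in AG_CPI mice. The AG mice stood above the other 4, NO_AG and AG_CPI overlapped, and the log2 change was 1.46 (SE 0.32, limma adjusted p = 0.0317). Usp18 was at 0.0132 and 0, 0.156 and 0.271, and 0.0299 and 0.0782, with a log2 change of 1.56 (SE 0.28, limma adjusted p = 0.0103), and was tested only through the AG mice. Ifit1 was at 0.0950 and 0.0518, 0.429 and 0.757, and 0.178 and 0.353, and Ifit3 at 0.0620 and 0.0441, 0.411 and 0.622, and 0.122 and 0.478. Both rose in AG (log2 2.02 and 2.04, limma adjusted p = 0.00267 and 0.00936), and neither passed the filter in a NO_AG mouse. For Ifit3 AG_CPI 2 lay within the AG range.

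Bst2 was at 0.873 and 0.901 in NO_AG mice, 1.501 and 1.95 in AG mice and 1.12 and 1.45 in AG_CPI mice. Ifi27l2a was at 2.95 and 3.21, 6.82 and 15.2, and 4.20 and 5.09, so that AG 2 stood far above the other mice. Irf7 was at 0.373 and 0.227, 0.685 and 0.805, and 0.334 and 0.485, and Rtp4 at 0.179 and 0.0984, 0.601 and 0.555, and 0.203 and 0.439. Both were highest in the AG mice, and for Irf7 AG_CPI overlapped NO_AG. Limma called 0 of the 8 in AG_CPI against AG (0.0829% of all genes lower, 0.0553% higher; log2 -1.16 to -0.44, adjusted p 0.197 to 0.917, all 8 at an unadjusted p under 0.05), and both AG_CPI mice were below both AG mice for 7 (19.5% of all genes). In AG_CPI against NO_AG limma called 0 of 8 (2.24% of all genes higher; log2 0.39 to 1.24, 5 at an unadjusted p under 0.05), with both mice above both for 6 (24.0% of all genes). Without AG_CPI 1, 0 were called in the comparison with AG and 1 in that with NO_AG, where clustering at resolution 0.5 gave 4. Keratinocyte markers in CD8 T cells summed to 6.06 to 6.61 in NO_AG, 7.62 to 8.01 in AG and 4.05 to 4.56 in AG_CPI, and macrophage markers to 0.122 to 0.171, 0.345 to 0.525 and 0.404 to 0.431; their part in the result was not tested.

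Within CD8 T cells, those with and without a UMI of the P14 receptor were set side by side. Trbv13-3, the beta-chain segment of the P14 receptor, had a UMI in 1.60% and 2.89% of CD8 T cells in NO_AG mice, 36.5% and 52.2% in AG mice and 55.3% and 60.4% in AG_CPI mice. In AG the summed level was 11.1 and 21.3 in CD8 T cells with a Trbv13-3 UMI and 12.7 and 25.1 in those without, and in AG_CPI 5.96 and 8.34 against 7.98 and 11.6. In NO_AG 2 it was 4.94 (11 cells) against 5.10. The cells with the UMI had the lower summed level in all 5 mice with at least 10 such cells, and the higher median UMIs in 4 of the 5. After thinning, cells with 3 or more of the genes were 5.78% and 11.7% of those with the UMI and 9.34% and 16.6% of those without in AG, but 3.48% and 6.23% against 5.23% and 4.91% in AG_CPI, so AG_CPI 2 went the other way. The difference was not tested.

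**Figure D5:**
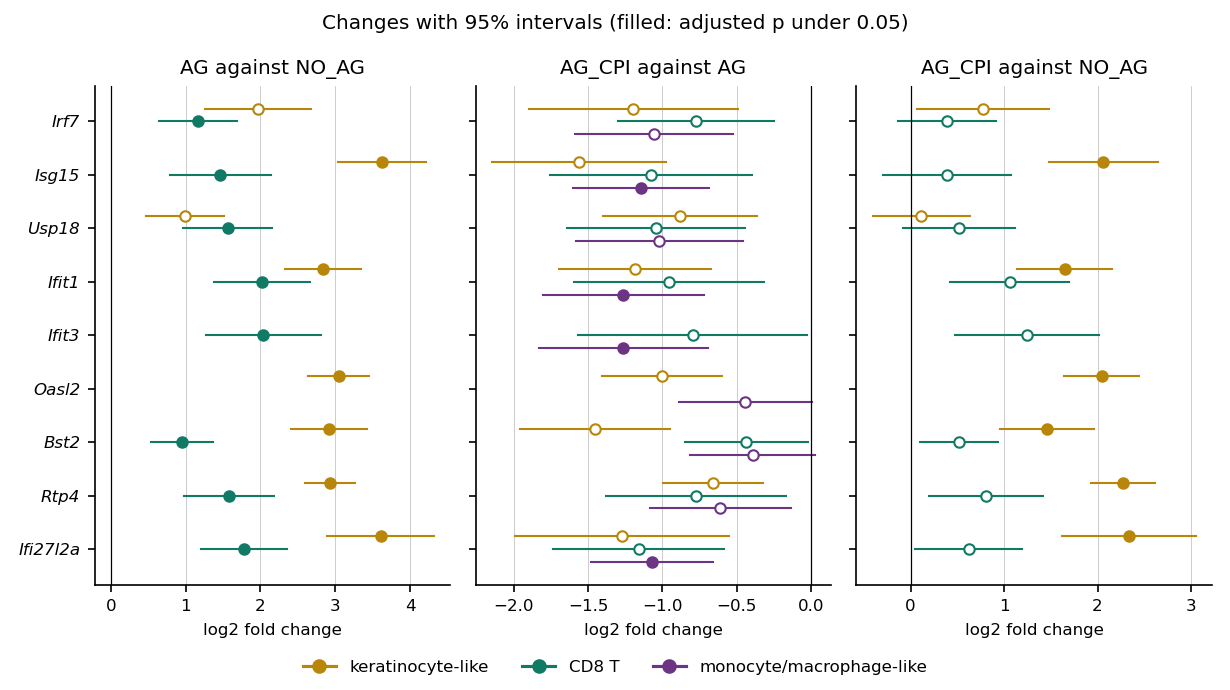
Log2 fold change of each gene with its 95% interval in keratinocyte-like, CD8 T and monocyte/macrophage-like cells, for the 3 comparisons; filled points have an adjusted p under 0.05, and a gene without a point was under the filter on low values. Isg15 and Bst2 lie further right in keratinocyte-like cells (3.63 and 2.92) than in CD8 T cells (1.46 and 0.95) for AG against NO_AG.

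Isg15 and Bst2 changed more in keratinocytes than in CD8 T cells. Tested as the difference of log2 values within each mouse, the change in AG against NO_AG was larger in keratinocyte-like cells by 1.96 for Bst2 (SE 0.20, limma adjusted p = 0.00319) and by 2.16 for Isg15 (SE 0.32, limma adjusted p = 0.0115). That is 2 of 7 genes tested in both classes, where the change differed for 0.536% of all 6345 genes. Ifi27l2a (1.83, adjusted p = 0.0997) and Rtp4 (1.35, adjusted p = 0.109) did not pass. For AG_CPI against NO_AG the difference for Isg15 was 1.67 (SE 0.32, limma adjusted p = 0.0342; 0.977% of all genes), and no gene was called without AG_CPI 1, AG_CPI 2 or NO_AG 1 or with thinned cells, while 4 were without either AG mouse. For AG against NO_AG, 1 was called without NO_AG 1. For AG_CPI against AG limma called 0 of 7 (0.0158% of all genes; 1 at an unadjusted p under 0.05). Limma also called 0 members in keratinocyte-like against ILC2-like cells (0% of all genes; 4 of 4 at an unadjusted p under 0.05), keratinocyte-like against dermal mesenchymal (0%; 2 of 3), CD8 T against dermal mesenchymal (0.148%; 1 of 3), macrophage-like against CD8 T (0.0876%; 0 of 8) and macrophage-like against keratinocyte-like cells (0.0347%; 1 of 8).

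Macrophage-like cells were few in NO_AG (7 and 3 cells), so only AG_CPI (242 and 202 cells) was compared with AG (161 and 536). Of the 9 genes, 4 fell in AG_CPI: Isg15, Ifit1, Ifit3 and Ifi27l2a, where 0.212% of the 6607 genes tested were called lower. Both AG_CPI mice were below both AG mice for all 9 genes (18.4% of all genes), and the median was -1.06 over the 9 against -0.0043 over all genes tested. Isg15 was at 13.4 and 16.8 in AG and 5.52 and 8.26 in AG_CPI, and fell by 1.14 on the log2 scale (SE 0.22, limma adjusted p = 0.0201). Ifi27l2a was at 15.5 and 17.5, and 7.22 and 8.43, and fell by 1.07 (log2, SE 0.19, limma adjusted p = 0.0143). Ifit1 was at 1.10 and 1.33, and 0.318 and 0.610, and Ifit3 at 1.29 and 1.33, and 0.326 and 0.707. Both had a log2 change of -1.26 (limma adjusted p = 0.0301 and 0.0404).

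The regulator and the protease were also lower in macrophage-like cells but did not pass: Irf7 was at 4.61 and 3.71, and 1.44 and 2.60 (log2 -1.06, limma adjusted p = 0.0774), and Usp18 at 0.464 and 0.512, and 0.131 and 0.264 (log2 -1.02, limma adjusted p = 0.121). Bst2, at 6.85 and 5.99, and 4.63 and 5.10, and Oasl2, at 1.59 and 1.70, and 1.07 and 1.32, were lower in both AG_CPI mice too. Rtp4 was at 1.98 and 2.03, and 1.04 and 1.57. The 4 calls became 0 without AG_CPI 1, 4 without AG_CPI 2, 6 without AG 1 and 7 without AG 2, and 0 without the filter, with the mouse number as a block or with a per-cell marker gate. Cells with 3 or more of the genes after thinning were 62.7% and 54.3% in AG and 27.7% and 42.1% in AG_CPI (unthinned 89.4% and 79.7%, and 64.9% and 84.7%). Macrophage markers summed to 163 and 228 in AG and 248 and 250 in AG_CPI, and keratinocyte markers to 4.58 to 10.1 and 3.25 to 3.43; their part in the result was not tested.

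Calls in the other cell types were few. In the Langerhans cluster, Bst2 and Ifi27l2a rose in AG against NO_AG (2 of 9 genes, 5 tested; 0.735% of all genes called higher). Ifi27l2a was at 0.161 and 0.206 in NO_AG and 2.51 and 2.77 in AG (log2 3.42, limma adjusted p = 0.00443), and Bst2 at 0.619 and 0.792, and 2.63 and 3.57 (log2 2.14, limma adjusted p = 0.0142). Macrophage markers in this cluster summed to 12.2 and 10.95 in NO_AG and 12.3 and 39.3 in AG (13 markers, 9 to 11 detected), highest in AG 2, and their part in the result was not tested. With thinned cells 0 of the genes were called there, and without any 1 of the 4 mice 3 or 4 were. In the Mgl2 cluster limma called 0 of 9 (0.0550% of all genes; 3 at an unadjusted p under 0.05); Isg15 came nearest, at 0.553 and 1.40 in NO_AG and 3.61 and 5.99 in AG (log2 2.20, adjusted p = 0.0640). Of the 9, 6 passed the filter there without any NO_AG mouse. Macrophage markers in this cluster summed to 91.6 to 178.3 in NO_AG, 56.1 to 75.95 in AG and 49.7 to 56.7 in AG_CPI, and alpha-beta T markers to 1.19 to 1.69, 2.69 to 3.53 and 3.02 to 5.09; their part in the result was not tested. There the summed level of AG_CPI was 22.4 and 24.7 against 22.9 and 26.9 in AG, and limma called 0 of 9 in AG_CPI against AG (0.0275% of all genes lower; 3 at an unadjusted p under 0.05) and in AG_CPI against NO_AG (0.303% higher; 3).

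In Foxp3-negative CD4 T cells (5 tested), Trdv4-leading lymphocytes (5), sebocyte-like (4), ILC2-like (4) and dermal mesenchymal cells (3), limma called none of the 9 in AG against NO_AG (0% of all genes called higher in each but sebocyte-like cells, 0.0327%), with 2, 5, 4, 2 and 3 genes at an unadjusted p under 0.05. No NO_AG mouse passed the filter for 3 of the 5 genes in CD4 T cells (Isg15, Rtp4 and Irf7) and 2 of the 4 in sebocyte-like cells (Isg15 and Oasl2), which sets their direction. In the Trdv4-leading lymphocytes both AG mice were above both NO_AG mice for all 5 (20% of all genes, with 21.1% below), of which 1, Ifi27l2a, passed the filter through the AG mice alone. Keratinocyte markers were higher there too, at 7.72 to 7.76 in NO_AG and 10.6 to 12.0 in AG, as they were in the CD4 T cells (6.36 to 6.42 and 7.04 to 8.39), and in ILC2-like cells alpha-beta T markers were at 12.7 to 17.7 and 23.5 to 29.5. Their part in these values was not tested. In Foxp3-negative CD4 T cells limma also called 0 of 5 in AG_CPI against AG (0% of all genes; 1 at an unadjusted p under 0.05) and in AG_CPI against NO_AG (0.419% higher, 0.0644% lower; 1), where both AG_CPI mice were above for 1 gene (19.8% of all genes) and below for 0 (21%). Dermal mesenchymal cells were a fibroblast-like cluster joined with a cluster led by Crabp1, Vcan and Rspo3. In this second cluster the share of cells with a UMI differed between fibroblast markers. It was 64.4% for Col3a1, 59.7% for Col1a2, 49.8% for Col6a1, 29.6% for Pdgfra and 23.7% for Col1a1. For Dpt it was 14.6%, for Dcn 5.53%, for Mfap5 2.77% and for Lum 1.58%. In the joined dermal mesenchymal cells Bst2 was at 0.987 and 0.700 in NO_AG and 2.65 and 5.76 in AG, and Isg15 at 0.119 and 0.285, and 0.679 and 2.71. The AG mice were above the NO_AG mice, with AG 2 (27 cells) far above AG 1 (55 cells). Plasmacytoid dendritic markers summed there to 24.5 in AG 2 and 0.971 to 2.47 in the other 3 mice, and keratinocyte markers to 11.3 and 222.9 in NO_AG and 11.6 and 4.93 in AG; their part in the result was not tested. The fibroblast-like cluster alone had 10 or more cells only in NO_AG 1 (15 cells, summed level 7.78) and AG 1 (13 cells, 25.4), which allows no test. Leaving out 1 mouse gave up to 4 calls in the Trdv4-leading and sebocyte-like cells (without AG 2 and without AG 1) and 3 in mesenchymal cells (without AG 1, NO_AG 1 or NO_AG 2).

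Other genes of the pathway were taken from lists. Of 33 further type I interferon-stimulated genes, 22 were tested in keratinocyte-like cells and 12 rose in AG against NO_AG (0.497% of all genes), with a median log2 change of 1.44 over those tested against -0.01 over all genes tested; 4 rose in AG_CPI against NO_AG (0.363%). Ifi44 rose by 2.37 (0.00716 and 0.00772 in NO_AG, 0.281 and 0.686 in AG), Xaf1 by 2.22, Oas1a, which makes the activator of RNase L, by 2.20 and Zbp1, a sensor of Z-form nucleic acid, by 2.19. Ifi44, Oas1a (0.0449 and 0.0787) and Zbp1 (0.0286 and 0.0413) were under the filter's level of 0.1 in both NO_AG mice and were tested only because other mice were higher, so the filter partly sets this count and median. The same holds in CD8 T cells for Ifitm3, Mx1 and Ube2l6. In CD8 T cells 5 of 23 rose in AG against NO_AG (1.45% of all genes), among them Ifitm3, which blocks virus entry (0.0144 and 0.0938 in NO_AG, 0.502 and 1.14 in AG, log2 2.59), Isg20 (1.12) and Mx1 (1.20). In CD8 T cells Ifitm3 also rose in AG_CPI against NO_AG, by 3.81. In macrophage-like cells 2 of 30 fell in AG_CPI against AG (0.212% of all genes), Isg20 by 1.19 and Ifitm3 by 0.95.

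Of the ISG15-conjugating enzymes, Ube2l6, the E2 of the reaction, rose in keratinocyte-like cells (0.155 and 0.148 in NO_AG, 0.636 and 0.469 in AG, log2 1.42) and in CD8 T cells (0 and 0.0543, 0.218 and 0.174, log2 1.29). Of the receptor and signalling genes, Stat2 rose in AG keratinocyte-like cells (0.157 and 0.184 in NO_AG, 0.523 and 0.529 in AG, log2 1.27), and Irf8 rose in AG CD8 T cells (log2 1.40). Of 16 genes responding mainly to interferon-gamma, 5 rose in AG keratinocyte-like cells (0.497% of all genes), among them Cxcl9, a chemokine for T cells (0.413 and 0.452, 4.03 and 4.37, log2 3.08), Gbp2 (2.41), Igtp (1.68) and Psmb9 (1.29). In CD8 T cells 3 of 16 of these genes fell in AG_CPI against NO_AG and 0 rose (1.38% of all genes lower, 2.24% higher): H2-Aa by 1.41, Cd74 by 1.35 and H2-Eb1 by 1.09 (log2), all of the MHC class II pathway. In macrophage-like cells, Nos2 of this list rose in AG_CPI against AG, by 1.07 (log2; 0.467 and 0.584, 1.28 and 1.15). Of the 4 nucleic acid sensors tested in keratinocyte-like cells limma called 0.

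Of 20 listed interferon genes 6 were analysed here, and the other 14, most of the interferon-alpha genes among them, were not analysed here. The 5 type I and type III genes among the 6 were close to undetected. Ifnb1 had 5 UMIs, all in macrophage-like cells of AG 2, Ifnk 1 in NO_AG 1, and Ifne, Ifna4 and Ifnl2 1 each in AG 2. Ifng had 372 and 480 UMIs in NO_AG mice, 3120 and 1622 in AG mice and 1305 and 1733 in AG_CPI mice, of which 1838 and 780 in AG lay in CD8 T cells. Cells with an Ifng UMI numbered 148 and 196, 691 and 607, and 479 and 574. At this depth, counts of 0 do not show that an interferon was absent.

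The genes most like the 9 over the 64 points of class and mouse (14 classes, 8473 genes, Pearson's r of log2 levels with the mean of the 9) were Cxcl9 (0.729), Ube2l6 (0.723), Ifit2 (0.709), Gbp2 (0.708), Xaf1 (0.678), Rnf213 (0.668), Irgm1 (0.658), Il18bp (0.658), Rsad2 (0.650) and Parp9 (0.649). Points share libraries, and r is given as a description. Of these 10, 5 are on the list of further type I genes, 3 on the interferon-gamma list and 1 among the ISG15-conjugating enzymes.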

How the data were processed

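Skin cells of 6 mice, 2 per group, were measured with a 10x 5' kit, per the labels. Cell Ranger 3.1 and mm10 are named in the submitters' processing notes. The deposited values are log10(1 + UMIs per 10000 UMIs of the cell): on that scale 100% of values were whole UMIs within 0.02, in each library, against lower shares for the other log bases tried. Because the unit is log10 and not counts, limma was used. Values were returned to the linear scale, cells with under 200 genes or over 20% mitochondrial UMIs and called doublets (Scrublet, by the expected rate) were removed, and cells were clustered with scanpy 1.11.5 (2000 variable genes without the 9 genes and the listed interferon genes, 30 components, 15 neighbours, Leiden resolution 1). Clusters were named from at least 3 detected markers, or 2 for gamma-delta T cells, where 3 of 11 listed markers had a column. At least 2 markers had to be among a cluster's top 50 genes, or 1 for keratinocyte states. The naming rule was revised after the clusters were seen, on markers and cell numbers and not on levels of the 9 genes. CD8 T cells were alpha-beta T-cluster cells with a Cd8a or Cd8b1 UMI and none of Cd4 or Trdc.

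Class means per mouse, of at least 10 cells, were TMM-scaled, and log2(mean + 0.1) was fitted with limma-trend 3.58.1 over all mice, with group as the term. Genes needed a mean of 0.1 and 10 UMIs in 2 mice. P-values were Benjamini-Hochberg adjusted over all genes of a class at 0.05. The fit was tested on simulated data. The 9 genes were examined in every comparison. Of each pathway list the called genes with the largest changes, up to 4, are named, and 10 genes by likeness. The genes and lists were chosen with earlier results of these data known. Alternatives were another pseudocount, scaling, filter, clustering, doublets kept, stricter cell filters, thinned cells, a marker gate, a replicate block and leaving out each mouse. Counts over the list of receptor and signalling genes are not reported here.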

Additional observations from a re-analysis of the deposited data

Results flagged for a closer look

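The change in AG against NO_AG differed between cell classes for Bst2 and Isg15, by a test of the difference itself. It was larger in keratinocyte-like than in CD8 T cells by 1.96 (log2) for Bst2 and by 2.16 for Isg15. For AG_CPI against NO_AG the change of Isg15 was larger in keratinocyte-like cells by 1.67. This last difference was not called without AG_CPI 1, AG_CPI 2 or NO_AG 1, nor with cells thinned to 1500 UMIs, and that of Isg15 for AG against NO_AG was not called without NO_AG 1. Keratinocyte-like cells of AG 2, with a median of 2332 UMIs per cell, were shallower than those of AG 1 at 6830. With thinned cells both differences for AG against NO_AG were still called.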

How the results depend on the processing

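Counts below are of the 9 genes called unless all genes are named, and causes were not tested. Without the filter on low values, which adds low genes to the adjustment, AG against NO_AG gave 2 in keratinocyte-like, 0 in CD8 T, 1 in Langerhans, 1 in suprabasal, 3 in bulge/germ and 0 in basal, cycling, upper follicle and Fst cells. AG_CPI against NO_AG then gave 1 in keratinocyte-like and 0 in cycling, upper follicle and Fst cells, and AG_CPI against AG 0 in macrophage-like cells. As reported, all genes called (higher and lower) were 41 and 1, and 30 and 14, in keratinocyte-like cells for AG and AG_CPI against NO_AG. They were 105 and 30, 4 and 6, and 162 and 100 in CD8 T cells for the 3 comparisons, and 24 and 14 in macrophage-like cells. Without the filter the totals became 5 and 5, 28, 1 and 83, and 3. A pseudocount of 0.5 gave 2 for AG_CPI against NO_AG in keratinocyte-like cells (12 of all genes), 20 of all genes for AG_CPI against AG in CD8 T cells, and 2 and 3 class differences (keratinocyte-like with CD8 T for AG_CPI against NO_AG, and with ILC2-like).
With thinned cells AG against NO_AG gave 0 in Langerhans and cycling cells, 1 in Mgl2, suprabasal, bulge/germ and upper follicle cells and 3 in Fst cells. AG_CPI against NO_AG gave 1 in Mgl2, upper follicle and Fst cells, 0 in cycling cells and 0 class differences, and all genes called in CD8 T cells became 84, 6 and 153. Leiden resolution 0.5 gave 4 in CD8 T for both comparisons with NO_AG and 1 in basal and cycling cells, with all genes called 252, 0 and 500 in CD8 T and 23 in keratinocyte-like cells. Interferon genes kept in clustering gave 1 in Mgl2 and cycling cells and 21 of all genes in keratinocyte-like cells. Doublets kept gave 1 in Mgl2 (both comparisons with NO_AG) and mesenchymal cells, 2 in basal cells, and 82 and 59 of all genes in keratinocyte-like and macrophage-like cells. Stricter cell filters gave 1 in mesenchymal and suprabasal cells. The marker gate gave 0 in macrophage-like cells (0 of all genes) and 26 and 11 of all genes in keratinocyte-like cells. Trdc UMIs allowed gave 2 for AG_CPI against NO_AG and 211 of all genes for AG against NO_AG in CD8 T cells.
Mouse numbers were not treated as pairs in the main fits. Correlations of same-numbered deviations were 0.0666, 0.138 and 0.0818 in keratinocyte-like cells, where each mouse correlated best with its own number. In CD8 T cells they were -0.0879, 0.00602 and -0.165, so these values do not settle whether the mice were paired. The replicate block gave 1 in CD8 T cells (AG_CPI against NO_AG), 0 in macrophage-like (8 of all genes), 2 in Trdv4-leading, sebocyte-like and suprabasal cells, 3 in mesenchymal and 4 in Langerhans cells, 73 and 139 of all genes in keratinocyte-like cells, and class differences of 4 and 4 (CD8 T) and 2 (ILC2-like).
The log2 change of Usp18, keratinocyte-like, AG_CPI against NO_AG, turned direction at -0.0567 (doublets kept) and -0.2267 (thinned) and ran from -0.1109 (without NO_AG 2) to 0.3352 with 1 mouse left out, with -0.1058 without AG_CPI 2. That of Ifit3, CD8 T, AG_CPI against AG, turned to 0.0615 at resolution 0.5. With 1 mouse left out, that of Isg15, CD8 T, AG_CPI against NO_AG, ran from -0.0133 (without AG_CPI 2) to 0.7838, and the difference in change of Irf7, keratinocyte-like minus CD8 T, AG_CPI against NO_AG, from -0.1436 (without NO_AG 1) to 0.9125.
Leaving out 1 mouse in turn, counts in the order AG against NO_AG, AG_CPI against AG and AG_CPI against NO_AG ran from 6 to 7, 0 to 0 and 1 to 6 in keratinocyte-like, 1 to 8, 0 to 1 and 0 to 1 in CD8 T, 0 to 1, 0 to 0 and 0 to 1 in CD4 T, 0 to 1, 0 to 0 and 0 to 2 in Mgl2, 0 to 1, 0 to 2 and 1 to 2 in suprabasal, 0 to 6, 0 to 2 and 0 to 7 in cycling, 0 to 8, 0 to 4 and 0 to 7 in upper follicle and 0 to 8, 0 to 3 and 0 to 7 in Fst cells. AG_CPI against AG ran from 0 to 7 in macrophage-like cells. AG against NO_AG ran from 0 to 4 in Trdv4-leading and sebocyte-like, 0 to 2 in ILC2-like, 0 to 3 in mesenchymal, 3 to 4 in Langerhans, 3 to 6 in basal and 4 to 7 in bulge/germ cells. Class differences ran from 1 to 3, 0 to 0 and 0 to 4 (keratinocyte-like with CD8 T), 0 to 2, 0 to 1, 0 to 3, 0 to 2, 0 to 1 and 0 to 1 for the other pairs. All genes called ran from 14 to 131, 0 to 1 and 5 to 227 in keratinocyte-like, 48 to 195, 2 to 17 and 78 to 326 in CD8 T and 4 to 457 in macrophage-like cells. Where this left 1 mouse in a group, it was assumed to vary like the others.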
